A study of Mus musculus with 4 samples.

Results

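A set of 10 genes of the testis and germ line was examined, chosen by name from the deposited table as genes known to be held silent outside the germ line by DNA methylation: Dazl, Tex101, Taf7l, Tuba3a, Tuba3b, Slc25a31, Brdt, Tex11, Fkbp6 and Tex13. All 10 were found among the 20723 gene symbols of the table, each with a single probe set. The cells were E14, a mouse embryonic stem (ES) cell line of Ola129 origin, grown on gelatin in 15% serum with leukemia inhibitory factor. In 2 samples (esiOgt) they were given esiRNA against Ogt, whose product attaches single N-acetylglucosamine sugars to nuclear and cytosolic proteins, and in 2 control samples (esiGFP) esiRNA against GFP. An esiRNA is a pool of short interfering RNAs. Total RNA was taken 48 h after transient transfection and read on 1 array per sample.

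Germ cell genes of this kind carry CpG-rich promoters that are methylated when the embryo implants and are then kept off in the body's other cells. Their repression in mouse cells involves DNA methyltransferases and a variant Polycomb complex that contains E2F6 and the partners MGA and MAX, which bind TCCCGC-like sites and E boxes. ES cells grown in serum hold methylated genomes and TET enzymes at the same time, and some germ cell genes are transcribed in them. DNA methylation was not measured in these samples.

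Promoter windows of 300 bases, from 250 before to 50 after the start of transcription, were available from RefSeq (GRCm38.p6) for 9 of the 10 genes. The table had no entry for Tex11. Of the 10 genes, Slc25a31 had the largest positive log2 difference (esiOgt minus esiGFP). Tuba3a and Tuba3b are a pair of related genes whose probe sets lay on opposite sides of a background line drawn from olfactory receptor genes. The 250 bases before the start site are given 5′ to 3′ on the gene's strand, with capitals marking CpG dinucleotides, the sites at which DNA methyltransferases act. The Slc25a31 stretch lies at chr3:40708621-40708870 on the plus strand, the Tuba3a stretch at chr6:125286082-125286331 on the minus strand and the Tuba3b stretch at chr6:145615713-145615962 on the plus strand.
Slc25a31: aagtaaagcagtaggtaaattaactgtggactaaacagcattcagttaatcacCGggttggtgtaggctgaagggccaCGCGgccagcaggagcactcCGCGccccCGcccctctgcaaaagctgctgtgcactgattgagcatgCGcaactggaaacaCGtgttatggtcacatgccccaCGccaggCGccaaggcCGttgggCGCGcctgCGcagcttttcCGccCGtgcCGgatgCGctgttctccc
Tuba3a: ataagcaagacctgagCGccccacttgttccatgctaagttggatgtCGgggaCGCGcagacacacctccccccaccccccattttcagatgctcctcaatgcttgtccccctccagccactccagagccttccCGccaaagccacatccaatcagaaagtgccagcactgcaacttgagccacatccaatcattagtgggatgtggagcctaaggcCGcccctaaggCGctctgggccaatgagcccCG
Tuba3b: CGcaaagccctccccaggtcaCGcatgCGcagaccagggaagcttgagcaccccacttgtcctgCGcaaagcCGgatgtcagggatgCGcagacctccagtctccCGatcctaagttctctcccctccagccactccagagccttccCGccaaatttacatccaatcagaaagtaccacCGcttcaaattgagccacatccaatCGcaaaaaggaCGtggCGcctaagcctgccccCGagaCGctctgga
These stretches held 18 CpG in Slc25a31, 8 in Tuba3a and 14 in Tuba3b, and the tubulin pair shared a run of 33 identical bases.

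Over the whole windows the member with the fewest CpG was Tuba3a with 12, and the richest were Dazl with 28 and the second of 2 Fkbp6 windows with 32. The median over all 32851 windows was 7. Thus every member with a window lay above the median of all windows. The E box CACGTG, which reads the same on both strands, occurred in the windows of 4 of the 9 genes, Brdt, Fkbp6, Slc25a31 and Taf7l. Among all genes with a window 8.09% held it, and among the 11355 genes with at least 12 CpG in a window 12.5% did. The E2F core TCCCGC, searched on both strands, occurred in 3 of the 9 genes (33.3%), Slc25a31, Tuba3a and Tuba3b. The tubulin pair held it within their shared run of 33 bases. Among all genes with a window 22% held the core, and 45.1% of those with at least 12 CpG did. The 2 motifs do not overlap each other in sequence. Such a match is a string of letters and not a measured binding site.

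**Figure D1:**
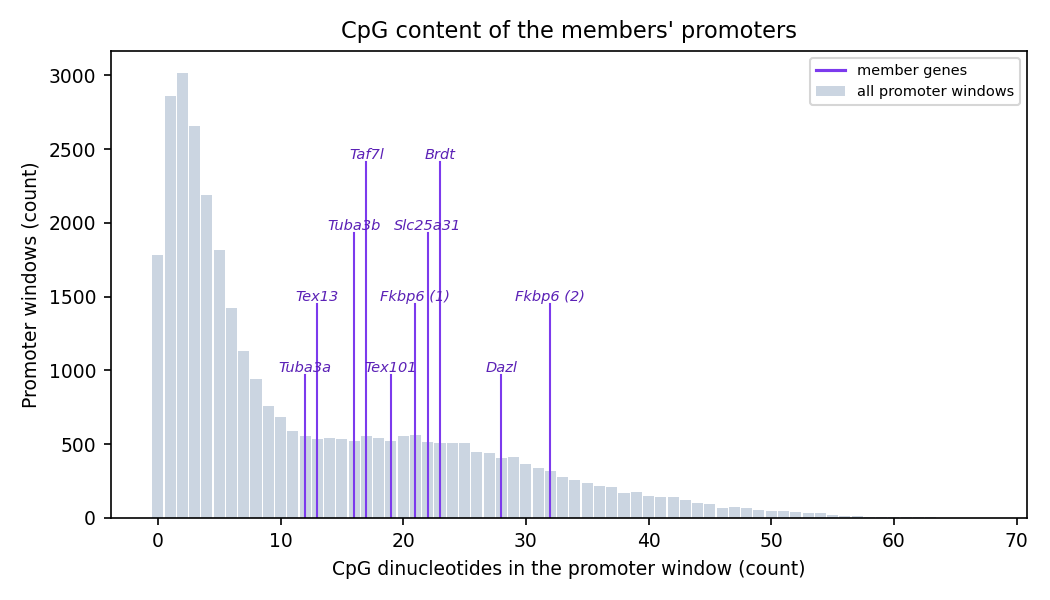
Number of CpG dinucleotides in 300-base promoter windows. Grey bars count all 32851 windows, and the purple lines, whose heights carry no value, mark the windows of 9 member genes (Fkbp6 has 2), which run from 12 CpG in Tuba3a to 32 in Fkbp6.

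The labels were checked with Ogt itself. Its log2 level was 9.73 and 10.09 in esiOgt cells, against 11.51 and 11.38 in esiGFP cells, a log2 difference of -1.54 (SE 0.17). Of the ES cell markers 7 were measured, and all stood far above background, with means over the list of 11.63 and 11.79 in esiOgt cells and 11.56 and 11.67 in esiGFP cells. Of 10 genes of spermatocytes and spermatids 7 were at background in esiGFP cells. The list averaged 4.95 and 4.99 in esiOgt cells and 5.04 and 5.04 in esiGFP cells. Of 6 fibroblast genes 2 were at background, and 6 of 6 primordial germ cell genes were above it. Of 5 genes of somatic cells of the testis 2 were at background and 3 above it.  The precision of everything below is limited by there being 2 arrays per group. The labels do not say that the 2 came from separate cultures, and their spread, on which the p-values rest, may thus be technical alone.

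A background line was taken from olfactory receptor genes, which ES cells are not known to use. In esiGFP cells 1132 such probe sets had a median log2 level of 3.82 and a 95th percentile of 5.66, and a gene at or under 5.66 was called silent. By this line 4 of the 10 members were silent in esiGFP cells, Tex101, Tex11, Taf7l and Tuba3b, and 6 were above it. Among all gene symbols 30.9% were silent. With the line at the 99th percentile (6.42) or at the median of all probe sets (6.43), Brdt and Slc25a31 were silent too, which left Tuba3a, Fkbp6, Tex13 and Dazl above it. A reading above the line does not by itself show that a gene was transcribed. The member just inside the line was Tex101, 0.08 under it, and the member just outside was Brdt, 0.60 above it.

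Probe sets differ in how brightly they read a given amount of RNA, so the following order is an order of signals. In esiGFP cells the highest was Tuba3a at 9.38 ± 0.30 (SD, n = 2 here and below), then Fkbp6 at 7.78 ± 0.30. Tex13 at 6.61 ± 0.04, Dazl at 6.59 ± 0.28, Slc25a31 at 6.41 ± 0.51 and Brdt at 6.26 ± 0.14 followed, and the arrays of each of these 4 overlapped those of its neighbour. Below the line came Tex101 at 5.58 ± 0.00, Tex11 at 5.21 ± 0.10, Taf7l at 5.19 ± 0.35 and Tuba3b at 4.91 ± 0.68, where Tex11, Taf7l and Tuba3b overlapped. Of the 10 genes of spermatocytes and spermatids 7 were at background in the same cells and 3 above it. Those 3 were Ldhc at 7.18 and the protamine genes Prm1 and Prm2, which pack DNA in sperm heads. Prm1 and Prm2 had mean readings of 6.48 and 6.502, close to the readings of Tex13, Dazl, Slc25a31 and Brdt. In bulk RNA, fewer cells that use a gene and less RNA per cell cannot be told apart.

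**Figure D2:**
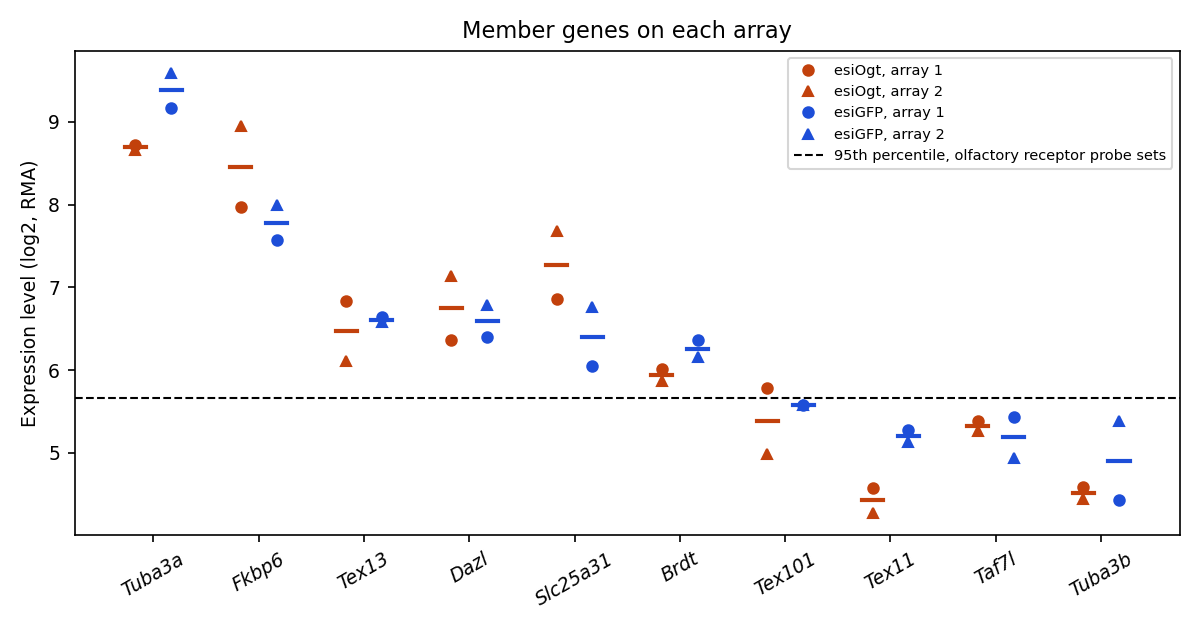
Log2 expression level of the 10 genes on each of the 4 arrays, esiOgt in orange and esiGFP in blue, with circles for array 1, triangles for array 2, short bars for group means and the dashed line at 5.66. Genes run from the highest esiGFP mean (Tuba3a, 9.38) to the lowest (Tuba3b, 4.91), and the groups do not overlap for Tuba3a, Slc25a31, Brdt and Tex11.

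The main comparison asked whether these genes differ when Ogt is silenced. No member passed an adjusted p of 0.05 in limma over all 34760 probe sets, and neither did any other probe set, of which 2565 had an unadjusted p under 0.05 (7.38%). The smallest adjusted p was 0.674. An exact permutation test of a single gene cannot give less than p = 0.333 with 2 arrays against 2. The values that follow are therefore differences that no test over all genes called.

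Slc25a31 encodes an ADP/ATP carrier of the mitochondria of male germ cells. Its log2 level was 6.86 and 7.68 in esiOgt cells, against 6.05 and 6.77 in esiGFP cells. Both esiOgt arrays lay above both esiGFP arrays, by a gap narrower than the distance between arrays of either group. The difference was 0.87 (SE 0.38, 95% confidence interval -0.17 to 1.90), or 1.82-fold. By size 0.598% of gene symbols differed by more, but 10.2% had a smaller p. In limma its unadjusted p was 0.082 and its adjusted p 0.686. The difference was 0.46 without esiOgt array 2.

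Fkbp6, a co-chaperone of the piRNA pathway and of meiotic chromosomes, read 7.97 and 8.95 in esiOgt cells and 7.57 and 7.99 in esiGFP cells. The higher esiGFP array exceeded the lower esiOgt array, so the groups overlapped. The difference was 0.68 (SE 0.38), and it was 0.18 without esiOgt array 2 and 1.17 without esiOgt array 1. Dazl, an RNA-binding protein needed to form germ cells, read 6.36 and 7.14 in esiOgt cells and 6.40 and 6.79 in esiGFP cells. Its difference was 0.15 (95% confidence interval -0.69 to 0.999), with groups that overlapped and a sign that turned without esiOgt array 2 (-0.23) or esiGFP array 1 (-0.04). In these 3 genes, Slc25a31, Fkbp6 and Dazl, array 2 read higher than array 1 in both groups. That held for 32.6% of gene symbols.

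The testis alpha-tubulin genes Tuba3a and Tuba3b encode the same protein in mice, and how far their probe sets share sequence was not tested, so their signals are uncertain as readings of either gene alone. Tuba3a read 8.73 and 8.66 in esiOgt cells, against 9.17 and 9.59 in esiGFP cells. Both esiOgt arrays lay below both esiGFP arrays. The difference was -0.69 (SE 0.18, 95% confidence interval -1.18 to -0.20), that is 1.61-fold lower, with an unadjusted p of 0.017 and an adjusted p of 0.674 in limma. Tuba3b, under the background line, read 4.58 and 4.44 in esiOgt cells and 4.43 and 5.39 in esiGFP cells. Its difference of -0.39 (SE 0.35) rested on 1 esiGFP array that stood above the other 3, and without that array it was 0.088.

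Brdt encodes a bromodomain protein that reads acetylated histones in spermatids. It read 6.02 and 5.86 in esiOgt cells, against 6.36 and 6.16 in esiGFP cells. Its esiOgt arrays were below its esiGFP arrays, and the difference was -0.32 (95% confidence interval -0.70 to 0.06). Tex13, X-linked and now named Tex13b, read 6.84 and 6.11 in esiOgt cells and 6.64 and 6.58 in esiGFP cells. Its esiOgt arrays enclosed the esiGFP arrays, and the difference was -0.14 (SE 0.27), or 0.23 without esiOgt array 2.

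Among the silent members Tex11 stood apart. This X-linked gene acts in meiotic recombination and chromosome pairing. It read 4.58 and 4.28 in esiOgt cells, against 5.28 and 5.14 in esiGFP cells. All 4 values lay under the background line, and the groups did not overlap. The difference of signals was -0.78 (SE 0.16, 95% confidence interval -1.21 to -0.35), with an unadjusted p of 0.0064 and an adjusted p of 0.674 in limma. Since both groups read at background level, no fold is given.

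The other silent genes showed no such gap. Taf7l, the germ cell form of a subunit of the basal transcription factor TFIID, read 5.38 and 5.27 in esiOgt cells and 5.44 and 4.94 in esiGFP cells, a difference of 0.13 (SE 0.20) that was -0.11 without esiGFP array 2. Tex101, a surface glycoprotein of germ cells, read 5.79 and 4.98 in esiOgt cells and 5.58 and 5.58 in esiGFP cells, a difference of -0.20 (SE 0.30) that was 0.21 without esiOgt array 2. The first esiOgt array of Tex101 was the only reading of a silent member above 5.66. None of the 4 silent members had a group mean above the line in esiOgt cells, where their means ran from 4.43 in Tex11 to 5.39 in Tex101.

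**Figure D3:**
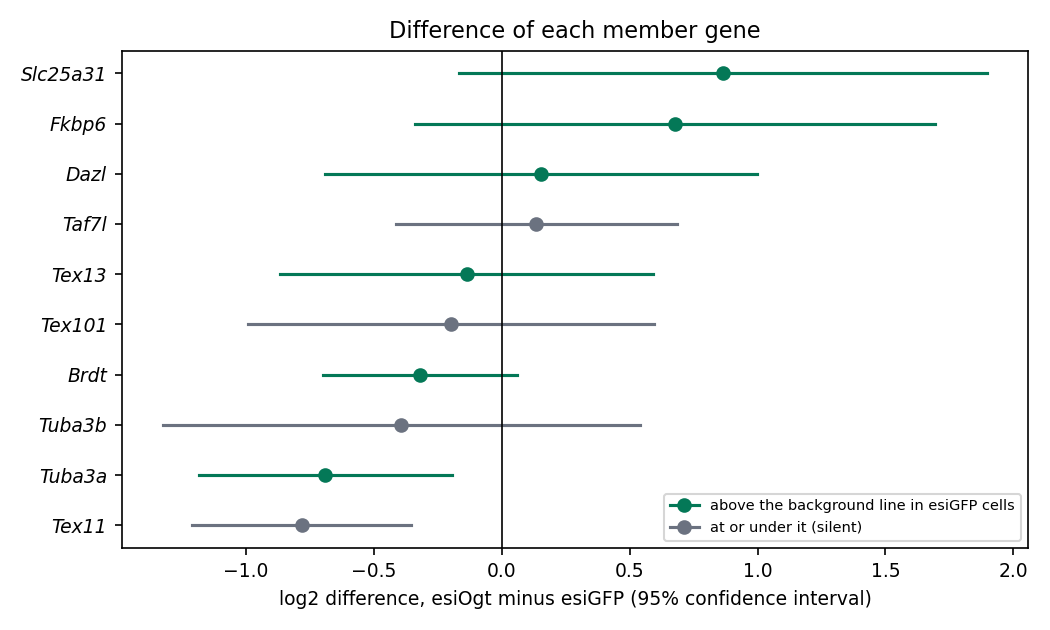
Log2 difference (esiOgt minus esiGFP) of each gene with its 95% confidence interval from limma, green for genes above the background line in esiGFP cells and grey for silent genes. The intervals of Tuba3a and Tex11 lie below 0, and the other 8 include 0.

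Across the 10 genes the median log2 difference was -0.17 (4 higher and 6 lower in esiOgt cells), against 0.0048 over all gene symbols. At an unadjusted p under 0.05 there were 2, Tex11 and Tuba3a, both lower, where 6.06% of gene symbols reached that level (2.66% lower and 3.4% higher). The groups did not overlap for 4 of the 10 genes, 3 lower and 1 higher, and for 39.5% of gene symbols. That share was near the background. The count of 2 and the share of gene symbols at that p both changed with the array left out. Such a fit has 1 array in a group, so only its differences are given. The median was -0.024 without esiOgt array 2 and -0.43 without esiOgt array 1. The sizes of the differences were wide, with a median size of 0.36 (log2), against 0.13 over all gene symbols. Within a group the members' SDs ran from 0.0008 (Tex101, esiGFP) to 0.69 (Fkbp6, esiOgt). Whether the median size exceeds what such spread between arrays gives was not tested. The 4 silent genes had a median of -0.30, with 1 higher and 3 lower. Of these 1, Tex11, was at an unadjusted p under 0.05 and free of overlap, where 3.17% and 35.5% of silent gene symbols were. Their median was -0.066 without esiOgt array 2, and -0.53 and -0.45 without esiOgt array 1 and esiGFP array 1. The 6 genes above the line had a median of 0.01, with 3 higher and 3 lower. Of these 1, Tuba3a, was at an unadjusted p under 0.05 and 3 were free of overlap, where 7.35% and 41.2% of gene symbols above the line were. The counts at that p among the silent genes and among the 6 also changed with the array left out. The split into silent and other members used the esiGFP values that also enter each difference, so the 2 are not independent. No test was made of the difference between the silent and the other members.

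The wider set of methylation-silenced germ cell genes held 45 further names, of which 43 were measured. In esiGFP cells 13 of these were silent and 30 above the line. The median log2 difference was 0.00, with 22 genes higher and 21 lower in esiOgt cells, and the median size was 0.26. An unadjusted p under 0.05 was seen for 12 of them, 5 higher and 7 lower, where 3.4% of gene symbols were at that level as higher and 2.66% as lower. The groups did not overlap for 23 of the 43, against 39.5% of gene symbols. After adjustment over all probe sets 0 passed in limma. The count of 12 and the share of all gene symbols at that unadjusted level were both lower without esiGFP array 1 or without esiOgt array 2. The median log2 difference was -0.074 and -0.089 in those fits, each with 1 array left in a group. In 14 of 37 genes with a promoter window the E box CACGTG was found (37.8%), and in 15 the E2F core (40.5%). For the E box the share was 8.09% of all genes and 12.5% of those with at least 12 CpG. For the E2F core these shares were 22% and 45.1%.

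The higher values with the smallest p in this set were those of the meiotic histone reader Zcwpw1 (difference 0.98, SE 0.11), of the synaptonemal complex genes Sycp1 (0.91, SE 0.12) and Tex12 (0.64, SE 0.11), and of Syce1 of the same complex. Sycp1 was silent in esiGFP cells and read 6.22 and 6.34 in esiOgt cells, against 5.40 and 5.34 in esiGFP cells. Tex12 read 5.03 and 5.03 in esiOgt cells, against 4.38 and 4.41 in esiGFP cells. It stayed under the background line in both groups, whereas Sycp1 crossed it. The Sycp1 mean in esiOgt cells, 6.28, was still under the alternative lines of 6.42 and 6.43. Syce1 read 8.25 and 8.95 in esiOgt cells, against 7.30 and 7.83 in esiGFP cells, a difference of 1.03 (SE 0.31).

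The lower values with the smallest p were those of the Tudor domain gene Rnf17 (-1.80, SE 0.14), Sycp3 of the synaptonemal complex (-1.45, SE 0.25), the piRNA pathway gene Piwil2 (-0.66, SE 0.12) and the piRNA factor Mael. Mael read 8.97 and 9.11 in esiOgt cells, against 9.49 and 9.52 in esiGFP cells, a difference of -0.46 (SE 0.12). All 4 of these lower genes were above the background line in esiGFP cells. Slc25a31 at 0.87 and Tex11 at -0.78 lay within the range of this set, which ran from -1.80 to 1.03.

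**Figure D4:**
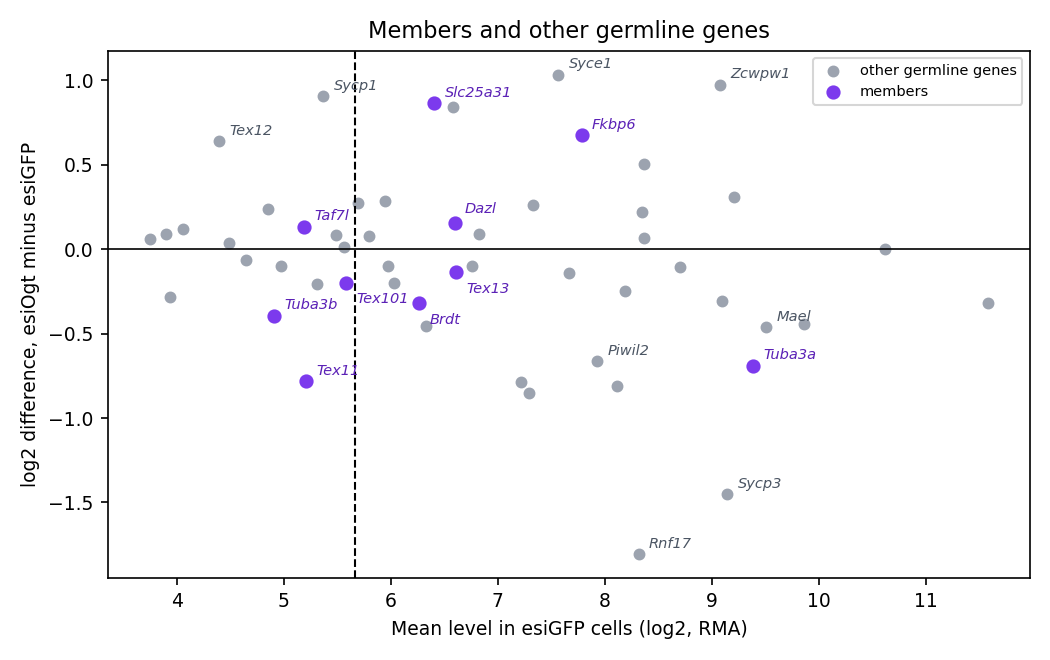
Log2 difference (esiOgt minus esiGFP, vertical axis) against the mean log2 level in esiGFP cells (horizontal axis) for the 10 members in purple and 43 other germ cell genes in grey, with the background line of 5.66 dashed. Genes on both sides of 0 occur on both sides of the dashed line, and the members run from -0.78 to 0.87. Both axes use the esiGFP values.

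Regulators of DNA methylation and of the repression of germ cell genes were measured alongside. Most of these are repressors, but the list also holds the TET genes, whose products act against methylation, and Wdr5, a subunit of several chromatin complexes. Of 33 names 32 were found, all above the background line. Their median log2 difference was 0.10 (25 higher and 7 lower in esiOgt cells), against 0.0048 over all gene symbols (10601 higher and 10122 lower). An unadjusted p under 0.05 was seen for 2 of the 32, 1 in each direction, a share near the 6.06% of all gene symbols, and 0 passed in limma after adjustment. The median ran from 0.017 without esiOgt array 2 to 0.21 without esiOgt array 1. The count of 2 and the share of gene symbols at that p both changed with the array left out. Array 2 read above array 1 in both groups for 23 of the 32. The maintenance methyltransferase gene Dnmt1 had a difference of 0.16 (SE 0.12), and Uhrf1, which guides it to replicated DNA, of 0.09 (SE 0.17). The de novo methyltransferase genes Dnmt3a and Dnmt3b stood at 0.24 (SE 0.28) and 0.02 (SE 0.29).

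E2f6, the DNA-binding repressor of the variant Polycomb complex, read 8.61 and 8.96 in esiOgt cells, against 8.30 and 8.41 in esiGFP cells. Its esiOgt arrays were above its esiGFP arrays, with a difference of 0.43 (SE 0.17). Its partners Max and Mga stood at 0.29 (SE 0.14) and 0.20 (SE 0.11), also without overlap of the groups. The subunits L3mbtl2 and Pcgf6 stood at 0.01 (SE 0.12) and 0.11 (SE 0.13), with groups that overlapped. Without overlap the groups differed for 15 of the 32 genes, 12 higher and 3 lower, where the shares over gene symbols were 20% and 19.4%.

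Among histone methyltransferases of H3 lysine 9, Setdb1 had a difference of 0.33 (SE 0.19), Ehmt2 of 0.25 (SE 0.13) and Ehmt1 of 0.32 (SE 0.12). The heterochromatin protein gene Cbx3 read 11.78 and 11.64 in esiOgt cells, against 12.05 and 12.15 in esiGFP cells, a difference of -0.39 (SE 0.13). It had the smallest p of the set, 0.034 unadjusted and 0.674 adjusted in limma. Of the TET genes, which encode dioxygenases of methylcytosine, Tet1 and Tet2 stood at 0.01 (SE 0.13) and 0.36 (SE 0.21).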

How the data were processed

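Total RNA of 4 samples was measured, per the labels, from 150 ng that whole-transcript kits copied into cDNA carrying a biotin label. The values deposited by the authors are log2 expression levels, made with RMA per the submitters' processing notes, which also name limma. The authors' deposited p-values and log2 fold changes were matched to within 4.84e-08 and 4.55e-08. The sources used here give no array type, build, scan date or slide, so no batch could be tested.

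All 34760 probe sets were fitted with limma 3.58.1 in R 4.3.3 (group as the only term, esiOgt minus esiGFP, Benjamini-Hochberg adjustment at 0.05), tested on simulated data. Each gene used its probe set of highest mean. Of the probe sets 11414 name no gene. The submitters' names were looked up by accession in RefSeq for promoters and current symbols. The 10 members, the gene lists and the background line were chosen with earlier results of these data known. Named genes are all members, Ogt, the 4 smallest p per direction of the wider germ cell list, and 13 preset regulators with the 3 smallest p. Prm1, Prm2, Ldhc and the primordial germ cell genes come from the marker lists and were named outside this rule. Lists were described by counts and medians. Alternatives covered normalization, level filter, probe sets, variance model, replicate block, thresholds and leaving out each array. No sample was left out of the fit.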

Additional observations from a re-analysis of the deposited data

How the results depend on the processing

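In each alternative fit 0 members and 0 probe sets passed an adjusted p of 0.05 in limma (0 also at 0.1 in the fit of all 4 arrays), and the counts below are at an unadjusted p under 0.05 unless another level is named. Centring on array medians, a variance trend, a robust prior and averaging the probe sets of a gene left the members' counts and medians as they were, within the limits used. Quantile normalization and such averaging gave 1 regulator, and testing only probe sets with 1 gene symbol gave 4. Keeping probe sets at or above the median level left 5 members, of which 1 was at that level, with a member median of 0.15, a median of -0.12 in the wider germ cell list and 1512 probe sets. The level of 0.01 in place of 0.05 left 481 probe sets, 1 member, 0 members above the background line, 6 of the wider list and 0 regulators. With a background line at the 99th percentile of olfactory receptors or at the median of all probe sets, 6 members were silent, Brdt and Slc25a31 being the added ones. Either esiGFP array alone gave 4.

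The labels do not state that arrays of 1 number belong together. With the replicate block 5 members were at that level (Brdt, Fkbp6, Slc25a31, Tex11 and Tuba3a), 4 of them above the background line. So were 6 regulators and 5279 probe sets. Counted over gene symbols, the share at that level was 13.4%. The block changed no call after adjustment. Deviations of same-numbered arrays from their group means correlated at 0.48 across probe sets.

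Leaving out each array in turn gave 1276 to 2788 probe sets, 1 to 6 members, 1 to 2 silent members, 0 to 4 members above the line, 7 to 13 of the wider list and 0 to 2 regulators. Median log2 differences ran from -0.43 to -0.024 for members, -0.53 to -0.066 for silent members, -0.07 to 0.09 for those above the line, -0.089 to 0.071 for the wider list and 0.017 to 0.21 for regulators. The sign turned for Dazl (-0.23 to 0.54), Tex101 (-0.60 to 0.21), Taf7l (-0.11 to 0.38), Tuba3b (-0.87 to 0.088) and Tex13 (-0.50 to 0.23). Dazl turned without esiGFP array 1 (-0.04) and without esiOgt array 2. Slc25a31 (0.46 to 1.27), Fkbp6 (0.18 to 1.17), Brdt (-0.42 to -0.22), Tuba3a (-0.90 to -0.48) and Tex11 (-0.93 to -0.63) kept theirs. The cause of these changes was not tested, beyond the fewer genes or arrays in each fit.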

Other observations

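Primordial germ cell genes were measured as a separate list, 6 of 7 names being found. The median log2 difference was 0.10, with 5 genes higher and 1 lower in esiOgt cells. Over all gene symbols it was 0.0048, with 10601 higher and 10122 lower. Of the list 0 had an unadjusted p under 0.05 in limma. Kit, the receptor of stem cell factor, read 9.87 and 9.49 in esiOgt cells, against 9.57 and 9.08 in esiGFP cells, and these groups overlapped. Dppa3, a maternal factor that guards DNA methylation in the zygote, read 6.51 and 6.52 in esiOgt cells, against 6.33 and 6.25 in esiGFP cells. Prdm1, a repressor that specifies germ cells, read 7.93 and 8.08 in esiOgt cells, against 7.79 and 7.83 in esiGFP cells. For Dppa3 and Prdm1 the groups did not overlap, as for 39.5% of gene symbols. Prdm14, Nanos3 and Dnd1 had differences near 0, of 0.017, 0.016 and -0.011, with groups that overlapped.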
